A study of Mus musculus with 8 samples.

Results

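The genes described here are the cytokines of the gp130 family, their receptors and the feedback inhibitor Socs3, measured on Affymetrix arrays in pressure-loaded mouse hearts with and without CITED4. The set was given by name: the ligand genes Il6, Il11, Lif, Osm and Ctf1, the receptor genes Il6st, Il6ra, Lifr and Osmr, and Socs3. All 10 were found by platform symbol among 22180 genes with a single-symbol probe set, and 8 of the 10 passed a filter on low signals that left 15086 genes. Il6 and Il11 lay below that filter and are given from a fit of all 22180 genes.

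The hearts came from male C57Bl6N mice and were harvested 1 week after TAC (transverse aortic constriction), an operation that narrows the aorta so that the left ventricle has to pump against a higher pressure. There were 4 hearts with a CITED4 knockout and 4 floxed control hearts, whose Cited4 gene is flanked by recombination sites. All 8 hearts had undergone TAC, so no value below describes an unloaded heart. The sources used here give no Cre driver, no statement on Cre in the controls, no age of the mice and no litters or array runs. The p-values therefore measure the spread between these samples.

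CITED4 regulates transcription through the coactivators CBP and p300. Its own signal was 5.26, 5.15, 4.83 and 5.02 in knockout replicates 1 to 4, against 5.89, 5.76, 6.05 and 6.22 in control replicates 1 to 4 (log2 intensity). The groups did not overlap, as in 5.23% of the genes tested. The difference was -0.91 (95% interval -1.19 to -0.64), a mean knockout level of 53.1% of the control level. Array medians lay between 4.29 and 4.33, and 15 of 15 ventricular cardiomyocyte markers passed the filter. The atrial marker score, the mean log2 deviation of 8 genes, was 1.40 in knockout replicate 2 and at most 0.07 in the other arrays. With 4 arrays a group, every value below has limited precision.

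Cytokines of this family act through gp130, the product of Il6st, which pairs with ligand-specific chains at the cell surface. Interleukin 6 and interleukin 11 first bind their own receptors, which do not signal, whereas LIF and cardiotrophin use a pair of gp130 and LIFR, and mouse oncostatin M mainly a pair of gp130 and OSMR. The pairs activate JAK kinases and STAT3, and STAT3 induces Socs3, whose protein binds gp130 and shuts the signal off. In mouse hearts the pathway is known for its part in myocyte survival and hypertrophy under pressure load and, through interleukin 11 and oncostatin M, in fibroblast activation and inflammation.

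None of the 10 genes passed the test between genotypes. The receptor gene Lifr was lower on average in knockout hearts (-0.41, log2), and Osmr (0.36) and Il6 (0.47) were higher on average, while Il6st, the shared signal chain, and Ctf1 differed by at most 0.04 in size. The test was limma, a linear model with moderated variances fitted over all genes, with p-values adjusted by Benjamini-Hochberg and called under 0.05. It called 0 of the 8 genes above the filter and 0% of the 15086 genes tested, and 0 of the 10 with no filter. Cited4 itself was not called, although its unadjusted limma p of 2.19e-05 was the smallest of the genes tested (adjusted p = 0.277). At an unadjusted p under 0.05 there was 1 of the 8, Lifr, on the lower side, where 5.61% of all genes tested were lower and 5.64% higher at that level. The 4 knockout values overlapped the 4 control values in all 10 genes, and groups without overlap were seen in 5.23% of the genes tested. Over the 10 genes with no filter, 5 differences were positive and 5 negative. Their median was 0.04, and that over all 22180 genes was 0.0091.

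**Figure D1:**
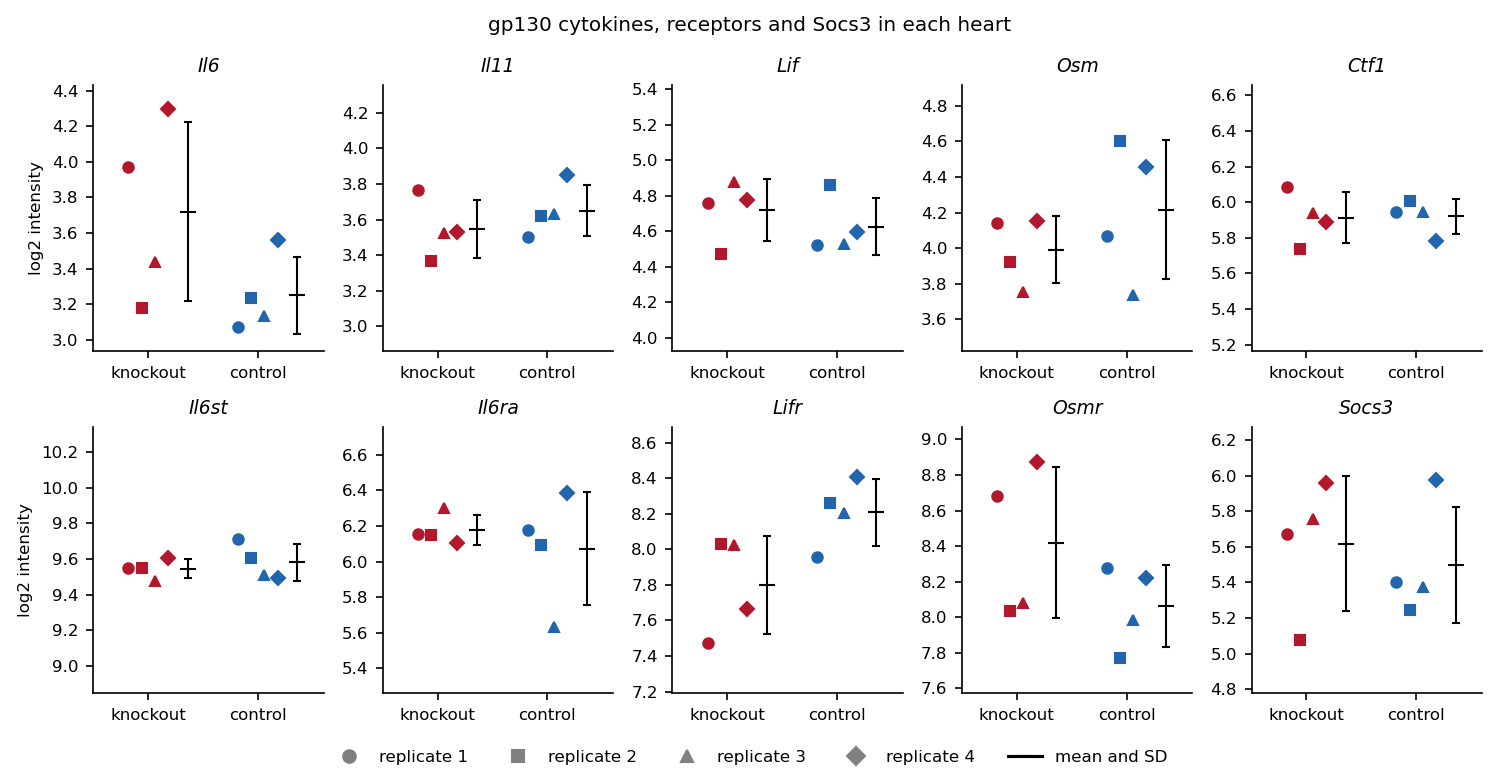
Log2 intensity (y axis, each panel spanning the same width of 1.5) of the 10 genes in the 4 knockout and 4 control hearts, with 1 symbol per replicate and the group mean and SD in black. Knockout replicates 1 and 4 hold the 2 highest values of Osmr and Il6 and the 2 lowest of Lifr, and the groups overlap in all 10 panels.

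Lifr encodes the receptor chain that LIF and cardiotrophin share. Its signal was 7.47, 8.03, 8.02 and 7.67 in knockout replicates 1 to 4, against 7.96, 8.26, 8.21 and 8.41 in control replicates 1 to 4. Knockout replicates 1 and 4 were the lowest of the 8 arrays, and knockout replicates 2 and 3 lay just above the lowest control. The means were 7.80 ± 0.27 in knockout and 8.21 ± 0.19 in control hearts (SD, n = 4 each), a difference of -0.41 ± 0.14 (SE; 95% interval -0.73 to -0.09). The mean knockout level was thus 75.3% of the control level, with an unadjusted limma p of 0.0165 and an adjusted p of 0.421. An exact permutation test, two-sided and over all 70 assignments of arrays to the groups, gave p = 0.0857, where 0.0286 is the smallest it can give. The difference ran from -0.30 (without knockout replicate 1) to -0.49 (without control replicate 1) on leaving out 1 array. It was -0.18 without knockout replicates 1 and 4, a pair singled out after the data were seen.

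Osmr encodes the chain that pairs with gp130 for oncostatin M. Its signal was 8.68, 8.04, 8.08 and 8.87 in knockout replicates 1 to 4, against 8.27, 7.77, 7.99 and 8.22 in control replicates 1 to 4. Knockout replicates 4 and 1 were the highest of all arrays, while knockout replicates 2 and 3 lay inside the control range. The means were 8.42 ± 0.42 in knockout and 8.06 ± 0.23 in control hearts (SD, n = 4 each), a difference of 0.36 ± 0.20 (SE; 95% interval -0.08 to 0.79). The limma p was 0.101 before and 0.507 after adjustment, and the exact permutation p was 0.229. The difference ran from 0.20 (without knockout replicate 4) to 0.48 (without knockout replicate 2) on leaving out 1 array. It was -0.0046 without knockout replicates 1 and 4. In bulk hearts, fewer cells of a type and less RNA per cell cannot be told apart, here or for any gene below.

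Il6, the cytokine gene that names the family, showed the same array order at the top. Its signal was 3.97, 3.18, 3.44 and 4.30 in knockout replicates 1 to 4, against 3.07, 3.23, 3.13 and 3.56 in control replicates 1 to 4. Knockout replicates 4 and 1 exceeded every control, knockout replicate 3 lay inside the control range and knockout replicate 2 near its lower end. The means were 3.72 ± 0.51 in knockout and 3.25 ± 0.22 in control hearts (SD, n = 4 each), a difference of 0.47 ± 0.22 (SE; 95% interval -0.01 to 0.95). With no filter the limma p was 0.0555 before and 0.559 after adjustment, where 9.03% of all genes had an unadjusted p under 0.05, and the exact permutation p was 0.2. The difference ran from 0.28 (without knockout replicate 4) to 0.65 (without knockout replicate 2) on leaving out 1 array. It was 0.06 without knockout replicates 1 and 4. The mean over all arrays, 3.49, lay under the filter floor of 3.80, so the signal is among the low ones of these arrays.

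The pattern of knockout replicates 1 and 4 was not rare in these data. Both arrays lay above every other array in 11.3% of the genes tested and below every other array in 12.9%, and above in 9.28% of all genes with no filter. Osmr and Il6 belong to the genes above and Lifr to those below, and the other 7 genes of the family to neither.

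**Figure D2:**
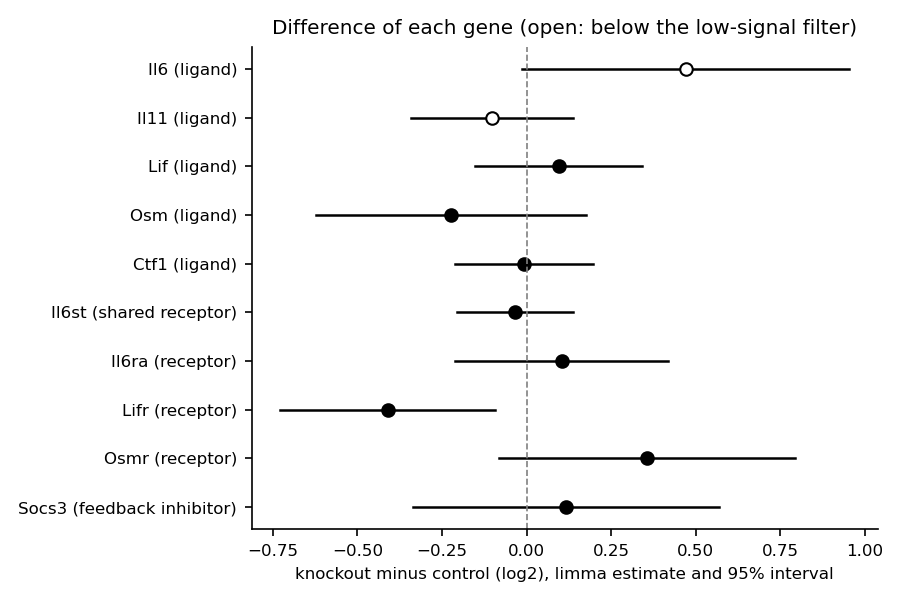
Difference between knockout and control hearts (x axis, log2) for each gene with its role (y axis); points are limma estimates, lines 95% intervals, and open points are genes below the low-signal filter. The interval of Lifr (-0.73 to -0.09) leaves out 0, and those of the other 9 genes include it.

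The other ligands differed less. Lif, which encodes leukaemia inhibitory factor, had 4.76, 4.47, 4.88 and 4.77 in knockout replicates 1 to 4, against 4.52, 4.86, 4.53 and 4.60 in control replicates 1 to 4. The groups interleaved, with a difference of 0.10 ± 0.11 (SE; adjusted p = 0.766 with limma), which lay between 0.04 (without knockout replicate 3) and 0.18 (without knockout replicate 2) on leaving out 1 array. Osm, a cytokine gene of macrophages and neutrophils, had 4.14, 3.92, 3.76 and 4.15 in knockout replicates 1 to 4, against 4.07, 4.60, 3.74 and 4.45 in control replicates 1 to 4. Control replicates 2 and 4 held its highest values and control replicate 3 its lowest, so the controls spanned the knockout values. The difference of Osm was -0.22 ± 0.18 (SE; 95% interval -0.62 to 0.17; adjusted p = 0.642 with limma). Leaving out 1 array moved it between -0.09 (without control replicate 2) and -0.38 (without control replicate 3). Ctf1, the gene of cardiotrophin, ran from 5.74 to 6.09 in knockout and from 5.78 to 6.00 in control hearts, with a difference of -0.0071 ± 0.09 (SE; 95% interval -0.21 to 0.20). Il11, a profibrotic cytokine gene below the filter, ran from 3.37 to 3.77 in knockout and from 3.50 to 3.85 in control hearts, with a difference of -0.10 ± 0.11 (SE) that ran from -0.18 (without knockout replicate 1) to -0.04 (without control replicate 4) on leaving out 1 array.

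The shared chain Il6st varied least of the 10 genes over the 8 arrays, with an SD of 0.08. Its signal was 9.55, 9.55, 9.47 and 9.61 in knockout replicates 1 to 4, against 9.71, 9.61, 9.51 and 9.49 in control replicates 1 to 4. Control replicate 1 was the highest and knockout replicate 3 the lowest, and the values of the groups were mixed. The difference was -0.04 ± 0.08 (SE; 95% interval -0.21 to 0.14; adjusted p = 0.886 with limma). Il6ra, the gene of the interleukin 6 binding chain, had 6.15, 6.15, 6.30 and 6.10 in knockout replicates 1 to 4, against 6.18, 6.09, 5.63 and 6.39 in control replicates 1 to 4. Control replicate 3 alone lay far below the other arrays. The difference was 0.10 ± 0.14 (SE; adjusted p = 0.804 with limma) and was -0.04 without control replicate 3 and 0.21 without control replicate 4.

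Socs3 encodes the inhibitor that STAT3 induces, and its mRNA is often read as a sign of an active pathway. Its signal was 5.68, 5.08, 5.76 and 5.96 in knockout replicates 1 to 4, against 5.40, 5.24, 5.38 and 5.98 in control replicates 1 to 4. Control replicate 4 was the highest and knockout replicate 2 the lowest, while the other 3 knockout hearts lay above the other 3 control hearts. The means were 5.62 ± 0.38 in knockout and 5.50 ± 0.33 in control hearts (SD, n = 4 each), a difference of 0.12 ± 0.20 (SE; 95% interval -0.33 to 0.57; adjusted p = 0.85 with limma). Leaving out 1 array moved it between 0.004 (without knockout replicate 4) and 0.30 (without knockout replicate 2, the array with the high atrial score), and it was 0.03 without control replicate 2. The gene had 1 further probe set, under the filter, with 3.37, 2.86, 3.21 and 3.61 in knockout replicates 1 to 4, against 3.10, 3.18, 3.07 and 3.12 in control replicates 1 to 4. Like the probe set used, it was lowest in knockout replicate 2. It was highest in knockout replicate 4 and did not show the high value of control replicate 4.

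Promoter sequences show what Socs3 and the cytokine genes carry upstream. The windows were RefSeq promoters of build GRCm38.p6, 250 bases before to 50 after a transcript's start. Of the 10 genes, 9 had at least 1 window (11 windows in all). The windows of Socs3, Osmr and Lifr lay inside the annotated span of the gene. The palindromic STAT motif TTCNNNGAA, searched on both strands, occurred in 1 of the 11 windows, that of Socs3, and in 8.3% of all 32851 windows. The AP-1 motif was searched as TGANTCA, with any base in the middle. It occurred in 4 of the 11 windows, those of Il6, Il11, Lif and Osmr, against 7.81% of all windows. FOS and JUN proteins usually bind the forms with G or C in the middle. That base was G in Il6 and Il11, C in Lif and T in Osmr. The motifs do not overlap each other in these windows. A match is a description of letters, not evidence of binding. The upstream 250 bases of Socs3 (chr11:117969367-117969616, minus strand) and Osmr (chr15:6874314-6874563, minus strand) and the stretches around the matches to TGANTCA are shown, with motif matches in capitals. They are shown because Socs3 held the STAT motif, and Osmr and 3 cytokine genes a match to TGANTCA.
Socs3 upstream: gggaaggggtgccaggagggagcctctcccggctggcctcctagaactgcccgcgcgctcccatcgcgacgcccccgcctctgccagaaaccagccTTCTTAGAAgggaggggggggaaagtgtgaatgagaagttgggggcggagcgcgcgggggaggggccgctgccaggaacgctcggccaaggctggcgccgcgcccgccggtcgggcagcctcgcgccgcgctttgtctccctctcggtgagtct
Osmr upstream: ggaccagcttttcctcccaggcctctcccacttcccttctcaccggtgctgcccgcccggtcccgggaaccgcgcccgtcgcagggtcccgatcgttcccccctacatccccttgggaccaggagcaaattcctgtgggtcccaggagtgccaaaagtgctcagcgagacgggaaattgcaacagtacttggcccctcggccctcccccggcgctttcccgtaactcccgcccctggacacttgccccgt
Osmr AP-1 stretch: gccccgtagtTGATTCAtagctggggc
Il6 AP-1 stretch: cTGAGTCActtttaaaga
Il11 AP-1 stretch: ggagggagggTGAGTCAggatgtgtca
Lif AP-1 stretch: cagtcagctgTGACTCAggccatagtg

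The STAT motif of Socs3 began 154 bases before the start of its window's transcript. The AP-1 motif began at base 4 of the Osmr transcript (stretch chr15:6874294-6874320, minus strand), 249 bases before the start of Il6 (chr5:30012864-30012881, plus strand, cut at the window's edge), 98 before that of Il11 (chr7:4778223-4778249, minus strand, in 1 of its 2 windows) and 228 before that of Lif (chr11:4257330-4257356, plus strand). The upstream 250 bases differed in base composition, with 42.8% G and C for Il6, 66.0% for Osmr and for Il6st, 71.6% for Socs3, and 82.4% and 50.8% in the 2 windows of Lifr, against a median of 52.4% over all windows. Neither Lifr window held either motif. They began at chr15:7129322 and chr15:7140292, while the annotated gene begins at chr15:7090610, so its annotated start was not searched. Of the genes with a match to TGANTCA, Il6, Lif and Osmr had positive differences and Il11 a negative one.

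The genes of the family were then compared with each other from heart to heart. Of 45 pairs across the 8 arrays, 0 passed after adjustment (exact permutation test of Pearson's r) and 3 had an unadjusted p under 0.05, where Spearman's rho gave 0 and 1. Il6 and Osmr were high in the same arrays, with r = 0.87 (exact permutation p = 0.00905, adjusted 0.407) and rho = 0.57 (exact permutation p = 0.151, adjusted 0.862). This relation rests on knockout replicates 1 and 4, since r was 0.18 without them, and within the groups it was 0.98 in the 4 knockout and 0.16 in the 4 control hearts. Lifr and Osmr ran in opposite directions, with r = -0.80 (exact permutation p = 0.0191, adjusted 0.431) and rho = -0.74 (exact permutation p = 0.0458, adjusted 0.862). Here r was -0.97 without knockout replicate 1 and control replicate 4, the arrays farthest from the median of Lifr, and -0.72 after removal of the group means. Within the groups it was -0.89 in the 4 knockout and -0.28 in the 4 control hearts. The 3 arrays with the highest Osmr, knockout replicates 4 and 1 and control replicate 1, were the 3 with the lowest Lifr.

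Il6 and Socs3 were the remaining pair, with r = 0.74 (exact permutation p = 0.0348, adjusted 0.522) and rho = 0.67 (exact permutation p = 0.0831, adjusted 0.862). Without knockout replicates 1 and 4 r was 0.84, and with the group means removed it was 0.78. Within the groups, r was 0.80 in the 4 knockout and 0.87 in the 4 control hearts, too few for a test. Osm and its receptor gene were not among the pairs with an unadjusted p under 0.05.

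Scores of activated fibroblast, general fibroblast and smooth muscle and pericyte markers were all highest in the 3 arrays where Osmr was highest. The activated fibroblast score, the mean log2 deviation of 12 genes from their means over the 8 arrays, was 0.93, 0.06, -0.32 and 1.00 in knockout replicates 1 to 4, against 0.38, -0.84, -0.68 and -0.53 in control replicates 1 to 4. The 3 highest scores were thus those of knockout replicates 4 and 1 and control replicate 1, which also had the 3 highest Osmr and the 3 lowest Lifr values. Of the 12 markers 11 were higher and 1 lower in knockout hearts, 8 with an unadjusted p under 0.05 and 0 called, with a median difference of 0.76. Of all 15086 genes tested, 7721 were higher, and 5.64% were higher and 5.61% lower at an unadjusted p under 0.05. The summed linear intensity of the 12 markers ran from 5912 to 11273 in knockout and from 4226 to 7546 in control hearts. The general fibroblast score was 0.27 and 0.26 in knockout replicates 1 and 4 and 0.18 in control replicate 1, and at most 0.17 in the other arrays. Of its 11 markers 8 were higher and 3 lower in knockout hearts (median 0.18, 4 higher at an unadjusted p under 0.05), with sums from 8223 to 11558 in knockout and from 7419 to 10257 in control hearts. The smooth muscle and pericyte score was 0.34 and 0.26 in knockout replicates 1 and 4 and 0.21 in control replicate 1, and below 0 in the other arrays. Of its 9 markers 5 were higher and 4 lower (median 0.06, 2 higher and 1 lower at an unadjusted p under 0.05), with sums from 4694 to 5454 in knockout and from 5434 to 5880 in control hearts. By this sum, unlike the score, the highest heart was a control. Il6 did not share this order, since control replicate 1 held its lowest value of the 8 arrays (3.07). The part of these cell types in the values of Osmr, Il6 and Lifr was not tested.

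**Figure D3:**
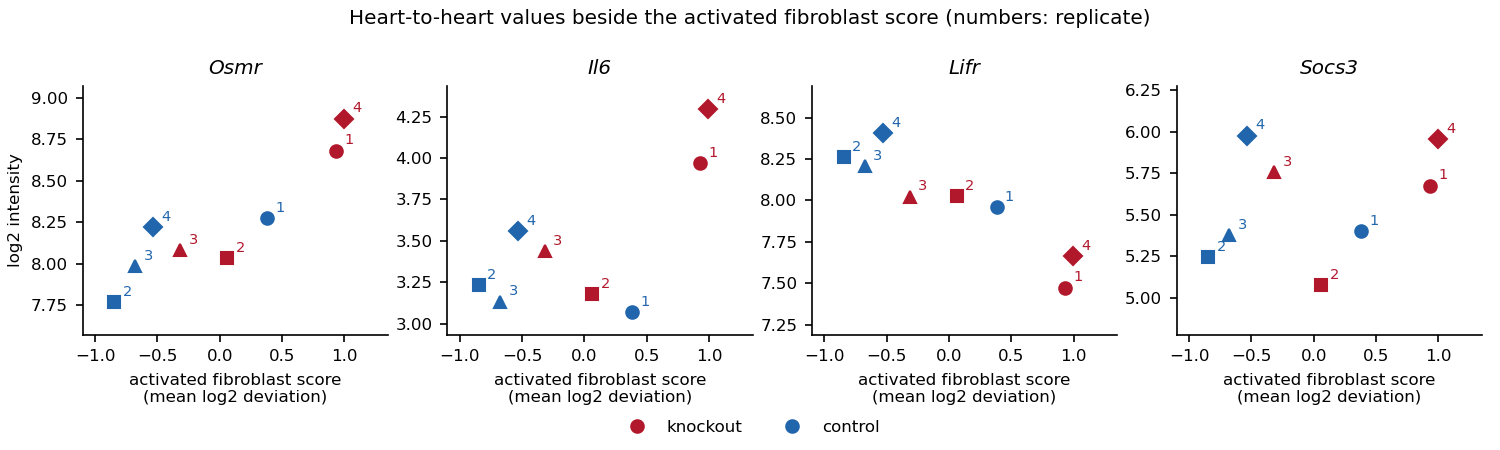
Log2 intensity of Osmr, Il6, Lifr and Socs3 (y axes, each spanning the same width) against the activated fibroblast score of the same heart (x axis, mean log2 deviation of 12 markers); points are hearts, numbered by replicate. Osmr is highest (8.68 and 8.87) and Lifr lowest (7.47 and 7.67) in knockout replicates 1 and 4, which have the scores 0.93 and 1.00.

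Ventricular cardiomyocyte markers were lower in 11 of 15 cases (median -0.14, 5 with an unadjusted p under 0.05), and their summed intensity ran from 40287 to 47091 in knockout and from 45777 to 48218 in control hearts. The median was -0.07 without knockout replicate 1 and -0.06 without knockout replicates 1 and 4. Their score was lowest in knockout replicates 1 and 4 (-0.22 and -0.19), the hearts with the lowest Lifr. Over all 15086 genes tested, 7721 were higher and 7365 lower in knockout hearts, and 5.61% were lower at an unadjusted p under 0.05. Markers of macrophages and monocytes, cells known to secrete oncostatin M, were higher in 10 of 15 cases (median 0.09), with summed intensities from 3638 to 4708 in knockout and from 3772 to 4035 in control hearts, and that median lay between 0.04 (without knockout replicate 3) and 0.17 (without knockout replicate 4) on leaving out 1 array. Of 8 neutrophil markers 6 lay below the filter, S100a8 and S100a9 among them, and the sums were 97 to 102 in knockout and 85 to 101 in control hearts. Endothelial markers ran from 3344 to 4588 in knockout and from 3829 to 4377 in control hearts. Their part in the values of the family was not tested.

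Genes whose levels followed those of 3 family members most closely were sought among 15085 genes by Pearson's r over the 8 arrays, which were normalized together. For Osmr they were Anxa7, an annexin gene (r = 0.98), Parm1 (0.98) and the kinase gene Dclk1 (0.98), with differences of 0.20, 0.33 and 0.33 between knockout and control hearts. For Il6st they were Gt(ROSA)26Sor, a widely expressed locus (r = 0.96), the ubiquitin ligase gene Itch (0.96) and Prkd3, a protein kinase D gene (0.95). For Socs3 they were Xkr8, which encodes a phospholipid scramblase subunit (r = 0.97), Ipo8, an importin gene (0.95), and the adaptor gene Shb (0.95). These are the highest of many values over few arrays and carry no p.

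Beyond the 10 genes, a list of 80 further pathway genes held 73 with a probe set of 1 symbol, 66 of them above the filter. None of the 66 passed the limma test (0 called), and 7 were higher and 2 lower at an unadjusted p under 0.05, a level reached by 5.64% of all genes tested on the higher and 5.61% on the lower side. Among further ligands, Ebi3, a cytokine subunit, differed by 0.19 ± 0.12 (SE), Il27, its partner subunit, by 0.08 ± 0.11, and Clcf1, a ligand of the ciliary neurotrophic factor receptor, by -0.03 ± 0.14. Of the receptor chains, Cntfr, that receptor's binding chain, had 5.67, 5.46, 5.65 and 5.76 in knockout replicates 1 to 4, against 4.98, 5.66, 5.35 and 5.38 in control replicates 1 to 4. Knockout replicates 1 and 4 exceeded every control and knockout replicates 2 and 3 did not, and the difference was 0.29 ± 0.13 (SE; adjusted p = 0.453 with limma). It was 0.17 without control replicate 1. Il27ra differed by 0.21 ± 0.10 and Il31ra, below the filter, by -0.12 ± 0.15. The proteases Adam17 and Adam10, which shed the interleukin 6 receptor, differed by -0.08 ± 0.07 and 0.07 ± 0.10.

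Signal carriers inside the cell were lower in 9 of 13 cases (median -0.06), against a median of 0.0038 over all genes tested. Their median moved on leaving out single arrays. It was nearer to 0 without knockout replicates 1, 2 and 3 (-0.0191, -0.0277 and -0.0199) and control replicate 1 (-0.0297). Without knockout replicate 4 it was farther from 0, at -0.0844. Stat5b, a transcription factor gene of the JAK-STAT pathway, had 6.83, 7.03, 6.82 and 6.80 in knockout replicates 1 to 4, against 7.12, 7.02, 7.07 and 7.29 in control replicates 1 to 4. Knockout replicate 2 lay just above the lowest control and the other knockout hearts below all controls. The difference was -0.26 ± 0.09 (SE; unadjusted p = 0.014, adjusted p = 0.421 with limma), and it was the 1 member of this list with an unadjusted p under 0.05. Gab1, a docking protein gene, differed by -0.13 ± 0.10, and Ptpn11, which encodes the phosphatase SHP2 that links gp130 to ERK, by -0.09 ± 0.07. Among inhibitors other than Socs3, 6 of 14 were higher and 8 lower (median -0.01), with 0 at an unadjusted p under 0.05. Socs7 differed by -0.26 ± 0.12, the STAT3 inhibitor Pias3 by 0.15 ± 0.08 and the JAK phosphatase gene Ptpn2 by 0.12 ± 0.08.

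Genes known as targets of STAT3 or gp130 signals were higher in 22 of 32 cases above the filter (median 0.10), with 0 called. Their median was 0.04 without knockout replicate 4, 0.06 without control replicate 2 and 0.17 without control replicate 4. Of all 15086 genes tested, 7721 were higher. At an unadjusted p under 0.05 there were 7 targets higher and 1 lower, where 5.64% of all genes tested were higher and 5.61% lower. Without overlap there were 1 higher and 0 lower, where 2.33% of all genes tested were higher without overlap. Lcn2, the gene of the acute phase protein lipocalin 2, had 7.46, 5.91, 6.34 and 7.35 in knockout replicates 1 to 4, against 5.46, 5.84, 6.01 and 5.93 in control replicates 1 to 4. Knockout replicates 1 and 4 stood more than 1 log2 unit above every control. Its difference was 0.96 ± 0.32 (SE; unadjusted p = 0.0122, adjusted p = 0.421 with limma), and 0.32 without knockout replicates 1 and 4.

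Ier3, an early response gene, was the target without overlap, with 9.05, 8.51, 8.56 and 9.29 in knockout replicates 1 to 4, against 8.36, 8.20, 8.24 and 8.48 in control replicates 1 to 4. All knockout hearts exceeded all control hearts, and replicates 1 and 4 were again the highest. The difference of Ier3 was 0.53 ± 0.17 (SE; unadjusted p = 0.00968, adjusted p = 0.421 with limma), and 0.21 without knockout replicates 1 and 4. Nampt, an enzyme gene of NAD salvage, was the target on the lower side, with 7.75, 8.37, 8.17 and 7.84 in knockout replicates 1 to 4, against 8.68, 8.49, 8.24 and 8.66 in control replicates 1 to 4. Its difference was -0.48 ± 0.15 (SE; unadjusted p = 0.00918, adjusted p = 0.421 with limma), and -0.25 without knockout replicates 1 and 4. The other 5 targets with an unadjusted p under 0.05 were named after their values were seen: the acute phase genes Serpina3n (0.76 ± 0.26) and Hp (0.34 ± 0.15), the protease inhibitor gene Timp1 (0.71 ± 0.27), the transcription factor gene Cebpd (0.27 ± 0.11) and the matrix gene Tnc (0.60 ± 0.27), which is also among the activated fibroblast markers. The liver acute phase genes Fga, Fgb and Fgg and Saa3, Reg3b and Reg3g lay below the filter.

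**Figure D4:**
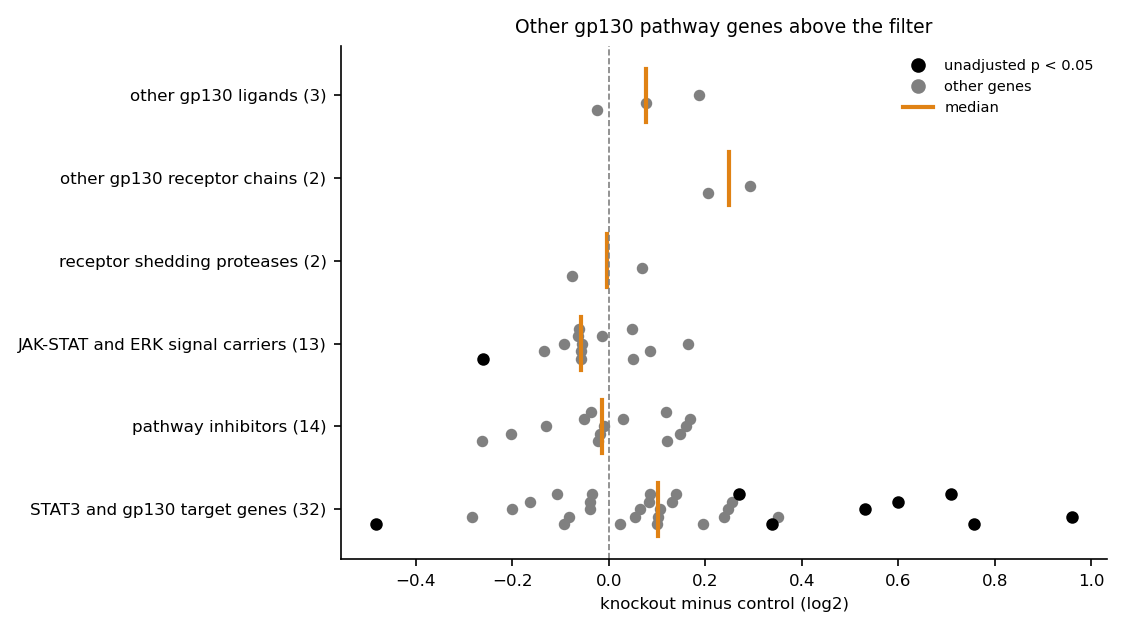
Difference between knockout and control hearts (x axis, log2) of the further pathway genes above the filter, by list (y axis, number of genes in brackets); black points have an unadjusted p under 0.05, bars are list medians, and the vertical offset of points only separates them. The widest spread is in the target list, from -0.48 (Nampt) to 0.96 (Lcn2).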

How the data were processed

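The authors deposited log2 intensities of 41345 probe sets for 8 Affymetrix arrays, and the submitters' processing notes name RMA and limma, with no version. RMA corrects background, makes the arrays' distributions equal and summarises the probes of a set. Quantile normalization hides a shift of all genes together. The sources used here name no array batch, so none was tested.

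The platform annotation gave 1 symbol for 23521 probe sets, of which 23328 took the RefSeq symbol by Entrez identifier. Each gene was read from its probe set of highest mean signal, and genes were tested from the 40th percentile of probe set means (3.80) up. Knockout and control hearts (4 each) were compared with limma 3.58.1 in R 4.3.3 (lmFit and eBayes) and, for single genes, by exact permutation in Python 3.11.15. The limma step was tested on simulated data with independent noise for each gene and array. Such data hold no deviation that many genes of an array share, so the test does not cover that case.

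Genes, lists and motifs were chosen with earlier results of these data known. Named are the 10 genes, Cited4, per pathway list all of up to 5 genes or else the 3 of smallest p, and per chosen member the 3 most correlated genes. Marker lists are given by counts. The AP-1 motif and the removal of knockout replicates 1 and 4 together were added later. Protein motifs were not analysed here. Alternatives were leaving out each array, other filters, scaling by quantiles or the median, averaging probe sets, array weights, robust estimation with a trend, an unmoderated test, a threshold of 0.1 and the replicate number as a block.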

Additional observations from a re-analysis of the deposited data

Results flagged for a closer look

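Each group of 4 arrays was examined for a single array far from the others in 28 genes (56 groups), and 3 groups held such an array by Dixon's ratio, which chance gives in about 1 in 20 groups. Stat5b was 7.03 in knockout replicate 2, where the other knockout hearts ran from 6.80 to 6.83. Il27ra was 5.87 in control replicate 4, where the other controls ran from 5.62 to 5.66. Gab1 was 7.54 in control replicate 2, where the other controls ran from 7.81 to 7.87. None of the 10 family members held such an array.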

How the results depend on the processing

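The count of genes past the threshold was 0 under every alternative run, as was that of the family and of the pairs. Genes at an unadjusted p under 0.05 numbered 1697, between 987 and 2390 without single arrays (1056 without control replicate 2, 1109 without control replicate 3, 987 without knockout replicate 1, 1058 without knockout replicate 4) and 617 without knockout replicates 1 and 4, with fewer arrays in each. Il6, Il11, Lif, Osm and Lifr kept their sign under the alternatives run. Without single arrays Ctf1 ran from -0.0649 to 0.0515, Il6st from -0.0649 to 0.0096, Il6ra from -0.0434 to 0.208, Clcf1 from -0.122 to 0.0848 and Il31ra from -0.204 to 0.0148. Without knockout replicates 1 and 4 Osmr was -0.0046, Socs3 -0.0819 and Il27 -0.0538. The cause was not tested. Same-numbered hearts deviated together in some pairs only (correlations 0.36, 0.0087, 0.28 and -0.03), so the numbers were not taken as pairs. With the replicate number as a block 0 genes passed and 2177 had an unadjusted p under 0.05.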
